A study of Homo sapiens with 12 samples.

Results

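The glutathione S-transferases measured here were 10 genes, GSTM1, GSTM2, GSTM3, GSTM4, GSTP1, GSTO1, GSTK1, MGST1, MGST2 and MGST3, out of 58735 genes in the deposited tables. The choice was by gene name, with no threshold on a measured value, although earlier results of these data were known. Transcripts were counted by RNA-seq in HLE-B3 cells, an immortalised line of human lens epithelial cells. The 4 groups were wild-type (WT) cells without treatment (0 h), WT cells after 12 h with 200 μM H2O2, ATG7 knockout (ATG7 KO) cells without treatment and ATG7 KO cells after the same H2O2 exposure, each with 3 biological replicates. ATG7 KO cells were made from the same line with CRISPR/Cas9, and single clones were picked after puromycin selection. How many clones gave the libraries is not given in the sources used here, so properties of a clone and the loss of ATG7 cannot be told apart in any comparison of ATG7 KO with WT cells.

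Glutathione S-transferases join the thiol of glutathione to electrophiles such as lipid aldehydes and quinones, and several of them also reduce peroxides or oxidised thiols. The soluble enzymes fall into classes named by Greek letters, here mu (GSTM), pi (GSTP1) and omega (GSTO1), while the kappa enzyme GSTK1 sits in mitochondria and peroxisomes and the MGST proteins are small enzymes of membranes. The lens keeps a large pool of glutathione that protects the thiols of its crystallins, and loss of that pool accompanies clouding of the lens. ATG7 is the E1-like enzyme of autophagy, the route by which cells degrade their own components.

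Libraries held between 15602183 and 17659496 counted reads. ATG7 mRNA was not lower in the ATG7 KO libraries, with 3.55 ± 0.205 FPKM (fragments scaled to gene length and library depth; SD, n = 3) against 2.55 ± 0.313 in untreated cells and 2.19 ± 0.137 against 1.96 ± 0.0411 after H2O2, so gene counts could not check the knockout labels. Of 18 lens epithelial markers, only SIX3, KRT8 and KRT18 exceeded 1 FPKM in every library, 13 stayed below 1 FPKM in every library and SOX2 and LIM2 had 0 reads throughout. Of 8 fibroblast markers, COL1A1, COL1A2, PDGFRB and THY1 exceeded 1 FPKM in every library, and the sum of the 8 lay between 650 and 682 FPKM in untreated WT cells, 292 and 309 in treated WT cells, 385 and 535 in untreated ATG7 KO cells and 262 and 271 in treated ATG7 KO cells. No immune or endothelial marker exceeded 1 FPKM in every library. The part of these marker levels in the results below was not tested, and in such bulk libraries fewer cells of a type and less RNA per cell cannot be told apart.

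Untreated ATG7 KO replicate 1 stood apart from the other libraries, and the members' results that use it are given with and without it. Its mean correlation with the 2 other replicates of its group was 0.976, against at least 0.986 for each of the other libraries. Relative to the mean of replicates 2 and 3, the 4735 shortest genes (up to 3527 bases) had a median log2 ratio of 0.38 in this library, and the 4733 longest (from 6336 bases) one of -0.28. Most transferases were higher in this library. Their median log2 ratio was 0.71, and 8 of the 9 detected members were above 0, led by GSTO1 at 0.99, MGST3 at 0.88 and GSTP1 at 0.81, with only GSTM2 below at -0.33. The part of this library in the untreated ATG7 KO values was not tested further than by leaving it out.

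The members could not be measured equally well. The 4 mu genes lie beside each other on chromosome 1 (GRCh38), GSTM4 at chr1:109656081-109674836, GSTM2 at chr1:109668022-109709551, GSTM1 at chr1:109687814-109709039 and GSTM3, on the opposite strand, at chr1:109733932-109741038. Their coding sequences are close copies. GSTM1 shares 92.2% of its coding bases with GSTM4 and 89.9% with GSTM2, but 74.9% with GSTM3. The same stretch of 90 coding bases is given here for the 4 members and for their neighbour GSTM5. It is an example of a part in which few positions tell a read from one mu gene apart from another. Capitals mark bases that differ from GSTM1, and the sequences were read from the GENCODE release 29 annotation.
GSTM1: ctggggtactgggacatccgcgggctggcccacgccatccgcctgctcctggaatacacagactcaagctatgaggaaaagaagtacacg
GSTM4: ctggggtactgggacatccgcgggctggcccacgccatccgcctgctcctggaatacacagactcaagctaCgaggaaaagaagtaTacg
GSTM5: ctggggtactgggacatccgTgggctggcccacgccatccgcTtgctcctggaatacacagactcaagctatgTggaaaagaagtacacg
GSTM2: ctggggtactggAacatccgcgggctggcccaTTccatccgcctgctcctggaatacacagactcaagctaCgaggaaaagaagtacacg
GSTM3: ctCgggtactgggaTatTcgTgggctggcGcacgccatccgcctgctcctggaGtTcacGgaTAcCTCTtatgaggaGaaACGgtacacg

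GSTM4 differed from GSTM1 at 2 of these bases, GSTM5 at 3, GSTM2 at 4 and GSTM3 at 18. The stretch is more alike than the coding sequences as a whole, in which GSTM1 and GSTM4 share 603 of 654 bases. Over whole principal transcripts, 74.5% of all runs of 50 bases in GSTM2, 62.9% in GSTM1 and 18.6% in GSTM4 also occurred in a transcript of another gene, against 5.90% in GSTM3 and 3.36% in GSTO1, whose runs were shared with the pseudogene GSTO3P. No such run was shared for GSTP1, GSTK1, MGST1, MGST2 and MGST3. The annotated exons of GSTM1 overlapped those of other genes over 961 of 2512 bases, those of GSTM2 over 10.2% and those of GSTM4 over 6.53% of their length. How reads with several matches were counted is not given in the sources used here, so the split of reads among GSTM1, GSTM2 and GSTM4 is uncertain, whereas GSTM3 and the genes outside the mu class are little touched by it.

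GSTP1 dominated the family. Summed over the 10 genes, the level was 174 ± 4.14 FPKM in untreated WT cells and 239 ± 4.04 in treated WT cells (SD, n = 3), and 241 ± 85.9 and 235 ± 7.48 in the corresponding ATG7 KO cells. Without untreated ATG7 KO replicate 1, the 2 remaining untreated ATG7 KO libraries held 189 and 195 FPKM. GSTP1 gave 68.1% to 70.4% of that sum in the group means. GSTO1 gave 17.68% ± 1.28 in untreated and 24.4% ± 1.05 in treated WT cells, and 19.6% ± 1.40 and 24.9% ± 1.40 in ATG7 KO cells, with 18.4% and 19.2% in the 2 other untreated ATG7 KO libraries. In untreated WT cells the mean FPKM fell from GSTP1 (122 ± 2.46) through GSTO1 (30.8 ± 2.79) and GSTK1 (10.4 ± 0.438) to MGST2 (3.64 ± 0.564), MGST3 (3.46 ± 0.175), GSTM4 (2.03 ± 0.171) and GSTM3 (1.80 ± 0.0202). MGST2 and MGST3 were the only neighbours in that order whose libraries overlapped. GSTM2 (0.133 ± 0.0142) and MGST1 (0.0124 ± 0.0112) were below 1 FPKM in every library.

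**Figure D1:**
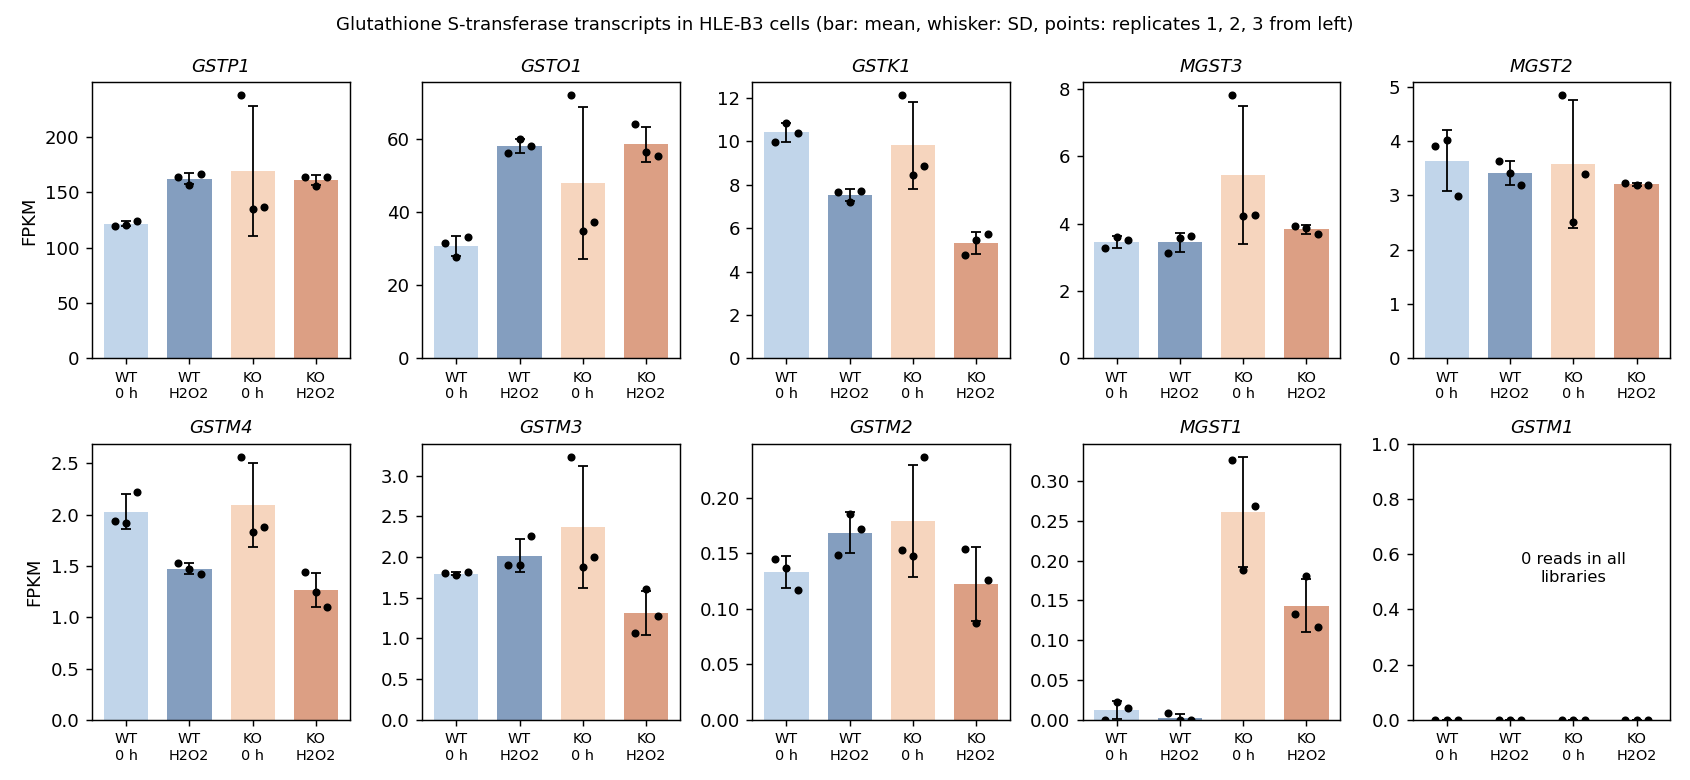
Level of each of the 10 genes in FPKM (vertical axes, each starting at 0) in the 4 groups (horizontal axes), with bars at the mean of 3 libraries, whiskers at 1 SD and points at single libraries. GSTP1 and GSTO1 were higher in treated than in untreated WT cells, GSTK1 was lowest in treated ATG7 KO cells, the first point of untreated ATG7 KO cells stood far above the other 2 for most genes, and GSTM1 had 0 reads in all libraries.

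GSTM1 had 0 reads in each of the 12 libraries. A count of 0 allows up to 3 reads in a library, which for this gene corresponds to at most 0.0765 FPKM, so any lower level was not detectable at this depth. The files hold counts per gene only, so an absent gene, a silent gene and reads assigned to a neighbouring copy cannot be told apart here.

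The lengths used for scaling set part of the order among the weaker members. FPKM was deposited per length of all annotated exons of a gene, which for MGST3 is 8.28 times the length of its principal transcript, the isoform that the annotation ranks first, but for GSTM3 only 1.17 times. Scaled to the principal transcript, a choice made after the data were seen, untreated WT cells held 251 reads per kilobase (after scaling to library depth) for GSTP1, 55.4 for GSTO1, 43.7 for GSTK1, 29.7 for MGST3, 9.39 for MGST2, 8.54 for GSTM4 and 2.18 for GSTM3. MGST3 thus stood well above MGST2 on this scale, while on the deposited scale MGST2 and MGST3 were alike. GSTP1 was highest on both scales. Comparisons of a gene with itself between groups are not altered by the length chosen.

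**Figure D2:**
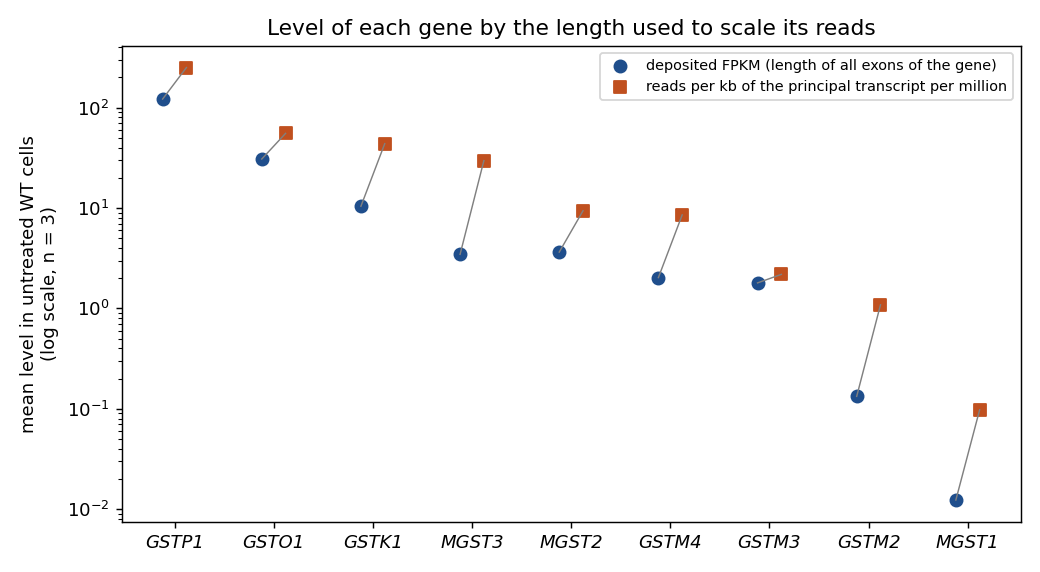
Mean level of 9 genes in untreated WT cells (n = 3, log vertical axis), as deposited FPKM (circles) and as depth-scaled reads per kilobase of the principal transcript (squares), with GSTM1 left out because it had 0 reads. The distance between the symbols is widest for MGST3, GSTM2 and MGST1, while GSTP1, GSTO1 and GSTK1 lead on both scales.

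Changes were tested on the read counts with edgeR's quasi-likelihood test, and a gene was called higher or lower where its p-value, adjusted over all genes tested, was below 0.01. In WT cells, H2O2 raised 2 of 8 tested members (GSTP1, GSTO1) and lowered 2 (GSTK1, GSTM4). Of all 15913 genes tested there, 61.0% passed, 30.9% higher and 30.1% lower. With H2O2 in ATG7 KO cells 1 of 9 fell (GSTK1) and 0 rose, where 26.0% of all genes passed, 13.6% higher and 12.4% lower. Without untreated ATG7 KO replicate 1, 2 rose (GSTO1, GSTP1) and 3 fell (GSTK1, GSTM4, GSTM3), where 58.4% of all genes passed. MGST1 entered the tests of ATG7 KO against WT cells only through the ATG7 KO libraries, in which it is high, so its calls there are counted but carry no weight. Between untreated ATG7 KO and WT cells 1 of 9 was higher (MGST1) and 0 lower, or 0 higher with at least 10 counts required in every library, where 7.70% of all genes passed, 4.42% higher and 3.28% lower. Without that replicate 4 were higher (MGST1, MGST3, GSTO1, GSTP1) and 1 lower (GSTK1), where 36.2% passed. Between treated ATG7 KO and WT cells 1 of 9 was higher (MGST1), again 0 with at least 10 counts in every library, and 2 were lower (GSTM3, GSTK1), where 55.6% of all genes passed, 27.7% higher and 27.9% lower. With all libraries and an unadjusted p under 0.05, 0 members rose in ATG7 KO cells and 0 were lower in untreated ATG7 KO cells. DESeq2 called 0 in both as well. Without untreated ATG7 KO replicate 1, 2 members rose and 2 were lower at that unadjusted limit in edgeR. The counts alone do not set the family apart from all genes.

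Changes beyond a log2 fold change of 1 with a mean above 1 FPKM in a group were found for 0 members. Of all genes tested, 12.5% passed these limits with H2O2 in WT cells, 11.2% in ATG7 KO cells, 3.50% between untreated and 7.46% between treated ATG7 KO and WT cells, and 5.17% in the difference of the responses. Without untreated ATG7 KO replicate 1 there were again 0 such members, where 11.8%, 4.32% and 5.10% of all genes passed for the H2O2 response of ATG7 KO cells, the untreated comparison and the difference of the responses. MGST1, whose fold changes were larger, stayed below 1 FPKM. Scaled to its principal transcript, it held 2.03 depth-scaled reads per kilobase in untreated and 1.07 in treated ATG7 KO cells. Its place below this limit thus depends on the length used. Libraries of the groups did not overlap for 6 of 8 tested members with H2O2 in WT cells (71.6% of all genes) and 5 of 9 in ATG7 KO cells (59.7%), for 6 of 9 between untreated ATG7 KO and WT cells (45.6%) and 4 of 9 between treated ones (68.2%). Without that replicate, which leaves 2 libraries in its group, these counts were 7 of 9 for the H2O2 response of ATG7 KO cells (75.5%) and 8 of 9 between untreated cells (61.3%). MGST1 is among the members that did not overlap between the genotypes.

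**Figure D3:**
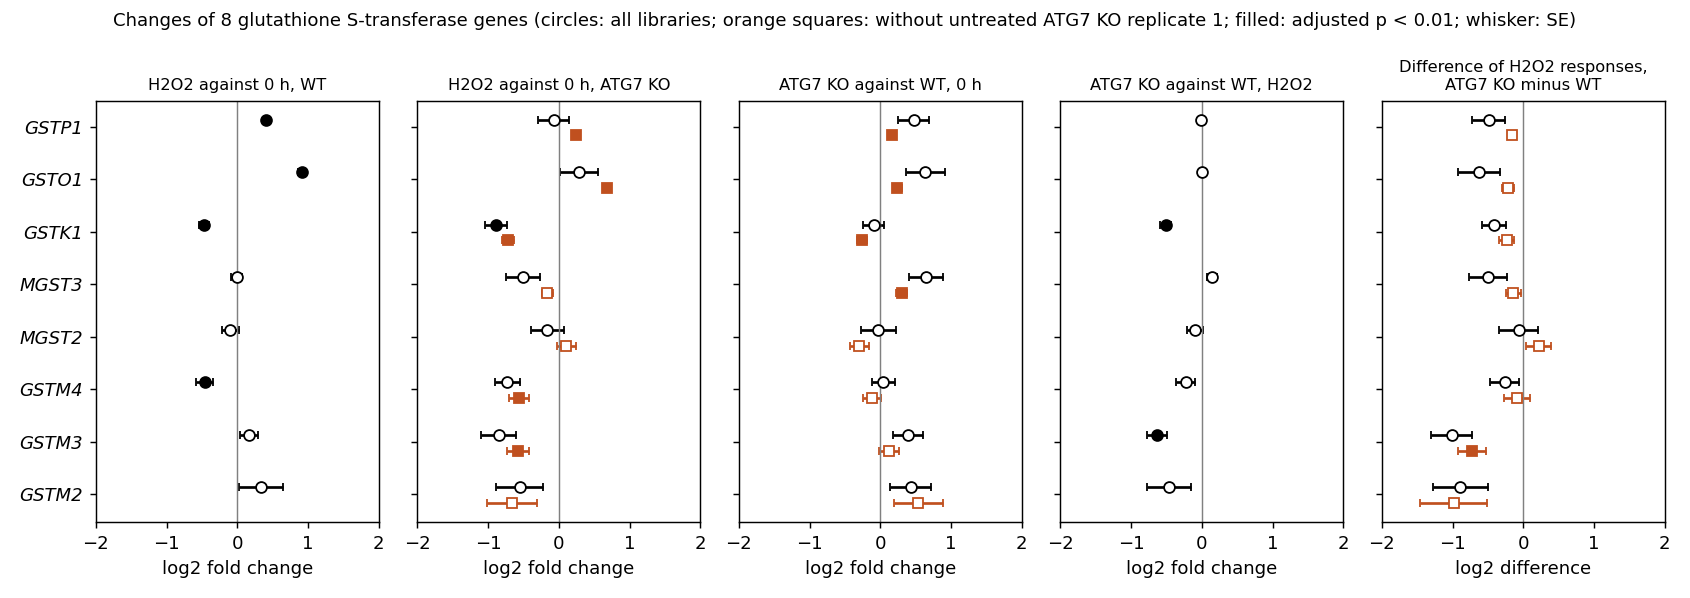
Log2 fold change (horizontal axes, whiskers 1 SE) of 8 genes in the 4 comparisons and in the difference of the H2O2 responses, for all libraries (circles) and without untreated ATG7 KO replicate 1 (squares), with filled symbols at adjusted p below 0.01. Without that replicate GSTP1 and GSTO1 moved to the right in the H2O2 response of ATG7 KO cells, from -0.07 to 0.24 and from 0.28 to 0.69, and the SE became smaller for every gene shown except GSTM2.

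GSTP1 (chr11:67583595-67586656, plus strand), the pi class enzyme that also binds JNK, rose in WT cells with H2O2. Its level was 119.8, 120.8 and 124.5 FPKM in the 3 untreated and 163.9, 156.9 and 166.3 FPKM in the 3 treated WT libraries, with no overlap, a log2 fold change of 0.41 ± 0.04 (SE) and an adjusted p of 9.43e-12. Its level in ATG7 KO cells was 237.5, 135.0 and 136.4 FPKM before and 164.2, 156.1 and 163.8 FPKM after H2O2. The first untreated replicate lay above all treated libraries and the 2 others below them, so the response was -0.07 ± 0.22 (adjusted p = 0.80) with that replicate and 0.24 ± 0.04 (adjusted p = 2.63e-10) without it. Untreated ATG7 KO cells differed from untreated WT cells by 0.48 ± 0.22 (adjusted p = 0.18), or by 0.16 ± 0.04 (adjusted p = 0.00099) without the replicate. After H2O2 the genotypes differed by -0.02 ± 0.04 (adjusted p = 0.70), with a 95% interval from -0.09 to 0.05. The rise in WT cells had an adjusted p of 0.054 when all 12 libraries, untreated ATG7 KO replicate 1 among them, shared 1 estimate of the spread, and with changes recentred by gene length GSTP1 was called higher in treated ATG7 KO cells by 0.16 ± 0.04 (adjusted p = 0.00024).

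GSTO1 (chr10:104235356-104267459, plus strand), an omega class enzyme that reduces dehydroascorbate and glutathionylated proteins, had the largest H2O2 response among the members tested in WT cells. It rose from 31.5, 27.7 and 33.1 FPKM to 56.3, 60.0 and 58.0 FPKM, a log2 fold change of 0.91 ± 0.06 (adjusted p = 7.22e-19), and no treated library overlapped an untreated one. ATG7 KO cells held 72.0, 34.8 and 37.4 FPKM before and 64.1, 56.4 and 55.3 FPKM after H2O2. As for GSTP1, the first untreated replicate exceeded every treated library and the 2 others lay below them. The response was 0.28 ± 0.27 (adjusted p = 0.42) with that replicate and 0.69 ± 0.05 (adjusted p = 1.40e-28) without it. Treated ATG7 KO and WT cells were 0.01 ± 0.05 apart on the log2 scale (adjusted p = 0.93), with a 95% interval from -0.09 to 0.10. With changes recentred by gene length that difference was 0.19 ± 0.05 and passed (adjusted p = 0.0016). In untreated cells GSTO1 was higher in ATG7 KO by 0.24 ± 0.06 without the replicate (adjusted p = 0.00071), against 0.64 ± 0.27 with it (adjusted p = 0.15).

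The stretches before the start sites of GSTP1 and GSTO1 are shown because these were the 2 members that rose with H2O2 in WT cells and because both hold the core of the antioxidant response element, TGACNNNGC, the sequence that NRF2 binds together with a small MAF protein. Each is 250 bases long, read 5′ to 3′ on the plus strand of RefSeq GRCh38.p14, and capitals mark the core.
GSTP1, chr11:67583562-67583811: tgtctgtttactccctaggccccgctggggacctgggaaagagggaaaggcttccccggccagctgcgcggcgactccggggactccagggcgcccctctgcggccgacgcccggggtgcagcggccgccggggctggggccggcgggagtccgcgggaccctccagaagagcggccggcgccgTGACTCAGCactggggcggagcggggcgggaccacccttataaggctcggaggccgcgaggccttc
GSTO1, chr10:104254642-104254891: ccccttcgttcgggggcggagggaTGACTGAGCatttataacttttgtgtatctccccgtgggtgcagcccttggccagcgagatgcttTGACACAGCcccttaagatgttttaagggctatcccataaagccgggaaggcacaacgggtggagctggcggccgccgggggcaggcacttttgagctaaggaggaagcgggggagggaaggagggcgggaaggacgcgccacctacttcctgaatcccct
The GSTP1 core lay 66 to 58 bases before the start and overlapped the AP-1 sequence TGANTCA, which JUN and FOS proteins bind. GSTO1 held 2 cores, 226 to 218 and 161 to 153 bases before the start. Both strands were searched in windows of 300 bases around the start. Of the 9 members with a window (none was given for MGST2), GSTM1, GSTO1, GSTP1 and MGST1 held a core. By windows these were 4 of 11, against 13.3% of all 35116 windows. MGST1 had 3 windows, of which 1 held a core, 30 to 38 bases after the start. Of all windows, 7.71% held the AP-1 sequence. A match is a string of letters and no measurement of binding.

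GSTK1 (chr7:143244093-143270854, plus strand), the kappa class enzyme, fell with H2O2 in both genotypes. With all libraries it was the only member called so, and without untreated ATG7 KO replicate 1 GSTM4 was called lower in both genotypes as well. WT cells held 9.99, 10.9 and 10.4 FPKM before and 7.66, 7.20 and 7.70 FPKM after H2O2, a log2 fold change of -0.47 ± 0.07 (adjusted p = 3.31e-08). ATG7 KO cells fell from 12.1, 8.44 and 8.88 FPKM to 4.75, 5.47 and 5.71 FPKM, by -0.89 ± 0.16 (adjusted p = 0.0042). All treated libraries lay below all untreated ones in each genotype. The fall in ATG7 KO cells was -0.72 ± 0.08 without untreated replicate 1 (adjusted p = 1.91e-16), while leaving out untreated replicate 3 or any 1 of the 3 treated replicates gave adjusted p from 0.010 to 0.026, above the threshold. After H2O2, GSTK1 was lower in ATG7 KO than in WT cells by -0.51 ± 0.08 (adjusted p = 1.22e-06), again without overlap. In untreated cells the genotypes differed by -0.09 ± 0.15 (adjusted p = 0.70), and by -0.26 ± 0.07 (adjusted p = 0.0011) without the replicate.

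In the mu class, GSTM3 was the member called lower in treated ATG7 KO cells, and GSTM4 the member called lower after H2O2 in WT cells. GSTM3 was at 1.80, 1.77 and 1.81 FPKM in untreated and 1.90, 1.90 and 2.25 FPKM in treated WT cells, a difference of 0.16 ± 0.13 that did not pass (adjusted p = 0.25). ATG7 KO cells held 3.23, 1.88 and 2.0 FPKM of GSTM3 before and 1.07, 1.60 and 1.27 FPKM after H2O2. Every treated ATG7 KO library therefore lay below every library of the other 3 groups. Between treated ATG7 KO and WT cells GSTM3 was lower by -0.63 ± 0.14 (adjusted p = 0.0003), although a fit that pooled the spread over all 12 libraries gave an adjusted p of 0.026. The H2O2 response in ATG7 KO cells was -0.85 ± 0.25 (adjusted p = 0.031) and, without untreated replicate 1, -0.58 ± 0.15 (adjusted p = 0.00039).

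GSTM4 fell in WT cells from 1.94, 1.92 and 2.22 FPKM to 1.53, 1.47 and 1.43 FPKM, by -0.46 ± 0.12 (adjusted p = 0.00078), and the groups did not overlap. In ATG7 KO cells it was at 2.56, 1.84 and 1.88 FPKM before and 1.44, 1.25 and 1.10 FPKM after H2O2, a difference of -0.73 ± 0.18 (adjusted p = 0.016) and, without untreated replicate 1, of -0.57 ± 0.14 (adjusted p = 0.00016). Treated ATG7 KO and WT cells differed by -0.23 ± 0.13 (adjusted p = 0.13). The fall in WT cells had an adjusted p of 0.017 when the spread was pooled over all 12 libraries. GSTM2 had 13 to 40 reads in a library, between 0.0868 and 0.237 FPKM, and passed in none of the 4 comparisons, with log2 differences from -0.55 to 0.43. Because reads among the mu genes may be split between copies, the reads of GSTM1 to GSTM5 were also added up. The sum includes GSTM3, which is little touched by such splitting. GSTM3 gave 457 reads in untreated and 476 in treated WT cells, against 624 and 420 for GSTM4. A sum without GSTM3 was not tested, so the values below do not check the fall of GSTM4 for split reads. The sum was lower in treated ATG7 KO than in treated WT cells by -0.44 ± 0.09 (adjusted p = 0.00016), and did not pass in untreated cells (0.22 ± 0.16, adjusted p = 0.39), in the H2O2 response of WT cells (-0.12 ± 0.09, adjusted p = 0.21) or in that of ATG7 KO cells (-0.77 ± 0.17, adjusted p = 0.010). Without untreated ATG7 KO replicate 1 the sum differed by 0.02 ± 0.09 (adjusted p = 0.86) in untreated cells, and its response in ATG7 KO cells passed at -0.58 ± 0.10 (adjusted p = 3.51e-08).

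Among the membrane enzymes, MGST1 (chr12:16347142-16609259, plus strand), which conjugates glutathione and reduces lipid peroxides at the endoplasmic reticulum and mitochondria, was nearly absent from WT and present at a low level in ATG7 KO cells. WT libraries held 0, 3 and 2 reads before and 1, 0 and 0 reads after H2O2, whereas ATG7 KO libraries held 40, 25 and 37 reads before and 17, 22 and 15 reads after. Every ATG7 KO library exceeded every WT library. Scaled to library depth, the summed counts were 20.5 times as high in untreated ATG7 KO as in untreated WT cells (102 against 5 reads, exact 95% interval 8.50 to 64.5) and 52.2 times as high after H2O2 (54 against 1 read, 8.98 to 2099.8), intervals that cover counting error only. Without ATG7 KO replicate 1 the untreated ratio was 18.4 (62 against 5 reads, 7.49 to 58.7). Because MGST1 passed the filter on low counts only through the ATG7 KO libraries, no p-value is given for these differences, and it was not tested between treated and untreated WT cells. H2O2 in ATG7 KO cells left MGST1 at 0.528 times its untreated count (0.373 to 0.742), which did not pass (adjusted p = 0.055). Without untreated replicate 1 the ratio was 0.587 (0.400 to 0.860, adjusted p = 0.079). At 0.261 ± 0.0690 FPKM its highest group mean stayed below that of GSTM3.

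MGST2 and MGST3, relatives of leukotriene C4 synthase that conjugate glutathione in membranes, differed less between the genotypes than MGST1. MGST2 (chr4:139665768-139740745, plus strand) was at 3.91, 4.01 and 2.99 FPKM in untreated and 3.63, 3.41 and 3.20 FPKM in treated WT cells, and at 4.84, 2.50 and 3.39 FPKM and 3.23, 3.19 and 3.19 FPKM in the ATG7 KO groups. Its groups overlapped in every comparison, and it passed in none, with or without untreated ATG7 KO replicate 1. The H2O2 response in WT cells had a 95% interval from -0.34 to 0.14, and the difference between treated ATG7 KO and WT cells one from -0.32 to 0.12. MGST3 (chr1:165630861-165661796, plus strand) was at 3.26, 3.604 and 3.51 FPKM in untreated and 3.13, 3.59 and 3.64 FPKM in treated WT cells, a response of -0.01 ± 0.08 (adjusted p = 0.93). ATG7 KO cells held 7.81, 4.24 and 4.26 FPKM of MGST3 before and 3.94, 3.86 and 3.69 FPKM after H2O2, and each of these libraries exceeded each WT library. The difference in untreated cells was 0.65 ± 0.24 (adjusted p = 0.11) and, without the replicate, 0.30 ± 0.08 (adjusted p = 0.00048). After H2O2 it was 0.14 ± 0.07 and did not pass (adjusted p = 0.085). The H2O2 response of MGST3 in ATG7 KO cells was -0.51 ± 0.24 (adjusted p = 0.13), without overlap of the groups. Without untreated replicate 1 that response was -0.16 ± 0.08 (adjusted p = 0.047), and neither value passed.

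Whether the response to H2O2 differed between the genotypes was tested as an interaction over all 12 libraries. In edgeR 0 of 9 members passed, where 14.0% of all 16856 genes tested did (7.02% higher and 7.01% lower), and 3 members (GSTM2, GSTM3 and GSTK1) had an unadjusted p under 0.05. GSTM3 came closest, with a response lower in ATG7 KO cells by -1.01 ± 0.28 (adjusted p = 0.018). It passed in DESeq2 (adjusted p = 0.0070) and without untreated ATG7 KO replicate 1 (-0.73 ± 0.20, adjusted p = 0.0016, where 34.1% of all genes passed). For the summed reads of GSTM1 to GSTM5 the difference was -0.64 ± 0.19 (adjusted p = 0.023). Without the replicate the sum passed at -0.44 ± 0.13 (adjusted p = 0.0044). For GSTP1 the difference was -0.49 ± 0.23 (adjusted p = 0.13) with the replicate and -0.16 ± 0.06 (adjusted p = 0.016) without it. For GSTO1 these values were -0.63 ± 0.30 (adjusted p = 0.12) and -0.21 ± 0.08 (adjusted p = 0.033). GSTP1 and GSTO1 passed when no filter on low counts was used (adjusted p = 0.0081 and 0.0010). That GSTP1 and GSTO1 passed in WT cells and not in ATG7 KO cells with all libraries is thus not a difference that passed its own test in the filtered fit.

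The rest of the transferase family and its membrane relatives gave 8 of 17 listed genes enough reads in treated cells, of which 2 were higher in treated ATG7 KO than in treated WT cells and 3 were lower. These 5 of 8 lie near the 55.6% of all genes that passed there. GSTA4, which prefers the lipid aldehyde 4-hydroxynonenal, was at 3.01, 3.58 and 3.31 FPKM in treated WT and 0.994, 1.15 and 1.19 FPKM in treated ATG7 KO cells, a difference of -1.57 ± 0.17 (adjusted p = 2.47e-09). Its response to H2O2 was lower in ATG7 KO than in WT cells by -1.45 ± 0.25 (adjusted p = 0.0015), or by -1.23 ± 0.24 without untreated ATG7 KO replicate 1. GSTO2, the neighbour and relative of GSTO1, was below 1 FPKM and is named after its values were seen. It went from 18, 13 and 12 reads to 94, 79 and 75 reads with H2O2 in WT cells and from 13, 15 and 21 to 18, 25 and 22 reads in ATG7 KO cells. The rise in WT cells was 2.62 ± 0.26 (adjusted p = 1.74e-12), and the responses differed by -2.17 ± 0.36 (adjusted p = 0.0012), or by -2.26 ± 0.46 without the replicate. PTGES, a membrane relative that makes prostaglandin E2, was higher in ATG7 KO cells both untreated, with 6.65, 5.21 and 5.18 against 0.545, 0.201 and 0.564 FPKM (3.70 ± 0.31, or 3.58 ± 0.24 without replicate 1), and after H2O2, with 0.955, 0.803 and 1.85 against 0.311, 0.137 and 0.460 FPKM. PTGES passed the filter on low counts in both comparisons only through the ATG7 KO libraries, in which it is high. Its calls between the genotypes are counted but carry no weight. GSTCD, a protein with a transferase-like C-terminal domain, fell with H2O2 in WT cells by -1.07 ± 0.10 and was higher in treated ATG7 KO than in treated WT cells by 0.57 ± 0.10.

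**Figure D4:**
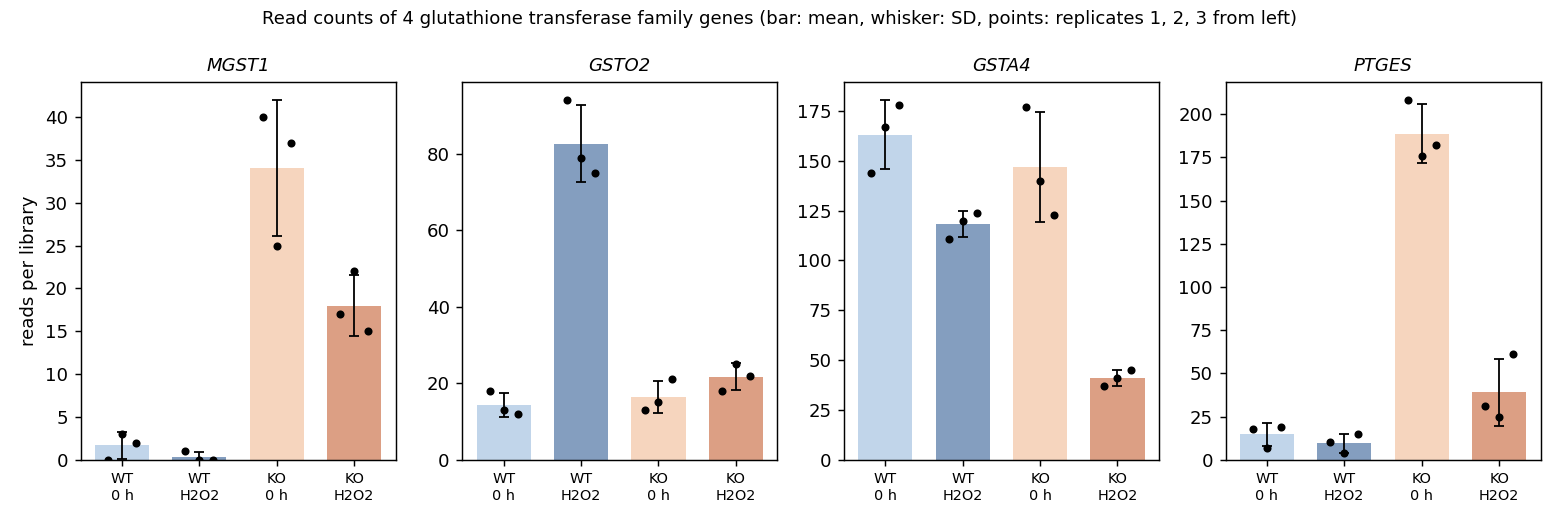
Read counts of MGST1, GSTO2, GSTA4 and PTGES (vertical axes, each starting at 0) in the 4 groups, with bars at the mean of 3 libraries, whiskers at 1 SD and points at single libraries. MGST1 and PTGES were at most 19 reads in every WT library, GSTO2 reached 75 to 94 reads only in treated WT cells, and GSTA4 was at 37 to 45 reads in treated ATG7 KO cells against at least 111 in every other library.

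Genes for the synthesis, breakdown and recycling of glutathione, the substrate of every member, rose with H2O2 in WT cells in 8 of 13 tested cases and fell in 1, with a median log2 fold change of 0.50 against -0.01 over all genes, where 61.0% of all genes passed and 30.9% were higher. Those that rose included SLC3A2, a chain of the cystine carrier, which rose by 1.74 ± 0.06, and GGT1, which breaks down glutathione outside the cell and rose by 3.16 ± 0.36. GGT1 had 29, 12 and 4 reads in untreated and 148, 107 and 122 in treated WT libraries. It passed the filter on low counts only through the treated ones, so its call is counted but carries no weight. With 1 library left out its rise was 2.70 to 4.06. The corresponding ATG7 KO counts were 6 of 14 higher, or 9 higher and 1 lower without untreated replicate 1, against 13.6% and 29.8% of all genes higher. GCLM, the regulatory subunit of the enzyme that starts glutathione synthesis, was at a difference of 0.72 ± 0.10 between untreated ATG7 KO and WT cells. It passed with all libraries and without ATG7 KO replicate 1 (0.69 ± 0.06), but not without ATG7 KO replicate 3 or any 1 WT replicate (adjusted p up to 0.029) nor with the replicate block (adjusted p = 0.017). After H2O2 8 of 13 were higher and 4 lower in ATG7 KO than in WT cells, against 27.7% and 27.9% of all genes, the lower ones including CHAC1, which cleaves glutathione inside the cell (-1.57 ± 0.14), and SLC7A11, the other chain of the cystine carrier (-0.95 ± 0.11).

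NRF2, its partners and targets, a group known to control several transferase genes, rose in WT cells in 15 of 18 cases and fell in 1, with a median log2 fold change of 0.61, where 30.9% of all genes rose. In ATG7 KO cells 6 rose and 1 fell, or 11 and 3 without untreated replicate 1, where 13.6% and 29.8% of all genes rose. Among genes above 1 FPKM the gains in WT cells were led by HMOX1, which degrades heme, and MAFF, a small MAF protein, at 2.67 ± 0.07 and 2.43 ± 0.06 in WT cells and 2.06 ± 0.14 and 1.21 ± 0.13 in ATG7 KO cells, or 2.21 ± 0.07 and 1.35 ± 0.05 without untreated replicate 1. Between treated ATG7 KO and WT cells 6 were higher, including FTH1, the heavy chain of ferritin (1.12 ± 0.03), and NQO1, a quinone reductase (0.56 ± 0.04). In the same comparison 9 were lower, including MAFK (-1.07 ± 0.11) and SRXN1, which repairs peroxiredoxins (-0.86 ± 0.12). Of all genes tested there, 27.7% were higher and 27.9% lower.

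Among glutathione peroxidases and glutaredoxins, 4 of 9 rose and 1 fell with H2O2 in WT cells, led by GPX3 and GPX1 at 1.22 ± 0.21 and 0.92 ± 0.05, and in ATG7 KO cells 2 fell, or 2 rose and 4 fell without untreated replicate 1. These shares lie near those of all genes, of which 61.0%, 26.0% and 58.4% passed. GPX4, which reduces lipid peroxides in membranes, was lower in treated ATG7 KO than in treated WT cells by -0.74 ± 0.05 (adjusted p = 2.63e-15), as were 3 others of this group. Of the 9 tested, 4 were lower and 0 higher there, where 27.9% of all genes were lower and 27.7% higher. Of enzymes that remove lipid aldehydes, 7 of 13 were higher and 2 lower in that comparison, where 55.6% of all genes passed. Of these enzymes, AKR1C1, AKR1C2, AKR1C3 and AKR1B10 entered that test only through the treated ATG7 KO libraries, in which they are high. Any call of theirs there is counted but carries no weight. AKR1C1, which with its relatives reduces such aldehydes, had 0 reads in each untreated WT library, 3, 3 and 5 in treated WT, 246, 172 and 150 in untreated ATG7 KO and 384, 385 and 417 in treated ATG7 KO cells. AKR1C1, AKR1C2 and AKR1C3 are close copies, so the split of reads among them is uncertain. Of 8 tested genes for export of conjugates and mercapturic acid formation, 4 were higher and 3 lower in treated ATG7 KO than in treated WT cells. Of all genes, 27.7% were higher and 27.9% lower there. The 3 lower included KYAT1, which cleaves cysteine conjugates (-1.5 ± 0.14). Among 6 genes listed around the kinases JNK and ASK1, JUN rose with H2O2 by 2.0 ± 0.05 in WT and 1.18 ± 0.09 in ATG7 KO cells (1.15 ± 0.04 without untreated replicate 1). MAP3K5, which encodes ASK1, was higher in treated ATG7 KO than in treated WT cells by 1.34 ± 0.16.

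The genes whose pattern over the 12 libraries was most like that of a member were sought by Pearson's r of log2(FPKM + 1) among 12551 genes, as a description in which all points share the same libraries, untreated ATG7 KO replicate 1 included. Without it the r of the same pairs stayed at 0.91 or above for GSTP1, GSTO1, GSTK1, GSTM4 and GSTM3, and was 0.874 and 0.828 for MGST3 and 0.789 and 0.707 for MGST2. HLA-B (0.986) and COX7A2L (0.983) were closest to GSTP1, and TCP1 (0.985) and ELOC (0.983) to GSTO1. GMPR and AURKB (0.983 and 0.982) were closest to GSTK1, HMGN1 and ZNHIT2 (0.984 and 0.977) to MGST3, SPATC1L and MAPK3 (0.968 and 0.967) to GSTM4, CHCHD1 and PFDN6 (0.960 and 0.957) to GSTM3, and AC097059.2 and C1orf131 (0.861 and 0.855) to MGST2. Genes within 500 kb of a member moved in both directions around most members. Around MGST1, all 3 tested neighbours (DERA, EPS8 and STRAP) were higher in treated ATG7 KO than in treated WT cells, where 27.7% of all genes were, while in untreated cells their median difference was -0.09 and 0 of 3 passed in edgeR, with 0 at an unadjusted p under 0.05. In treated cells, where 55.6% of all genes passed, 4 of 24 were higher and 10 lower around GSTP1, 3 and 3 of 9 around GSTO1, and 1 and 1 of 7 around GSTK1.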

How the data were processed

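Read counts per gene and FPKM for 12 RNA-seq libraries were analysed as deposited. Per the submitters' processing notes the authors used HISAT2 2.0.5 and featureCounts 1.5.0-p3 with GRCh38, in roles the notes do not give. The deposited FPKM used the length of all annotated exons, and multi-mapping and strand settings are not given in the sources used here. The deposited counts were tested with edgeR 4.0.16 (R 4.3.3, TMM scaling, minimum count 10, robust quasi-likelihood test, 6 libraries per comparison, 12 for the interaction), with Benjamini-Hochberg adjustment over all genes tested and calls below 0.01. DESeq2 1.42.0, limma 3.58.1 on log2(FPKM + 1) and log2(FPKM + 0.1), other scalings and filters, a gene length correction, a replicate block and leaving out each library were alternatives. Levels per principal transcript length, and values, gene list counts and sums without untreated ATG7 KO replicate 1, were added after seeing the data. Scripts were tested on simulated counts. The 95% intervals of log2 differences are normal intervals around the estimate. The 10 members and the 12 gene lists were chosen with earlier results of these data known. Each list contributed at most the 2 highest and 2 lowest called genes above 1 FPKM per comparison. Genes called for the interaction were named by the same limit. GSTO2, below 1 FPKM, was named outside this limit after its values were seen.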

Additional observations from a re-analysis of the deposited data

Results flagged for a closer look

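The H2O2 response differed between the genotypes, by the interaction test over all 12 libraries (log2, ATG7 KO minus WT, adjusted p below 0.01), for 17 genes of the 7 lists around the transferases, where 14.0% of all genes tested passed, and for 0 of the 9 tested members, of which DESeq2 called 1 (GSTM3) and 3 had an unadjusted p under 0.05. By list, those called higher and lower were 0 and 3 of 8 tested in the wider family. For glutathione synthesis and recycling they were 0 and 1 of 14, and for export and mercapturic acid formation 1 and 2 of 8. For aldehyde removal they were 1 and 1 of 13, and for peroxidases and glutaredoxins 0 and 2 of 9. For NRF2 and its partners and targets they were 0 and 5 of 18, and around JNK and ASK1 0 and 1 of 6. Of the 17, 13 are named, those left by the limit on named genes and GSTO2. GSTO2 was below 1 FPKM and was added outside the limit after its values were seen. Within the wider family the response was lower in ATG7 KO cells for ALOX5AP, a membrane relative that serves leukotriene synthesis, by -2.59 ± 0.51, for GSTO2 by -2.17 ± 0.36 and for GSTA4 by -1.45 ± 0.25. ALOX5AP had 5, 3 and 5 reads in untreated and 12, 9 and 16 in treated WT libraries. ATG7 KO libraries held 48, 35 and 38 before and 22, 23 and 13 after H2O2. It passed the filter on low counts only through the ATG7 KO libraries, so its call is counted but carries no weight. Of genes that supply or use glutathione, the response was lower for GPX3 by -2.07 ± 0.29, for GLRX, a glutaredoxin, by -1.05 ± 0.23, and for SLC3A2 by -0.98 ± 0.17. The exporter genes differed in opposite directions, ABCC3 by -1.24 ± 0.23 and ABCC4 by 0.81 ± 0.19. Of the enzymes for aldehydes, AKR1B1, aldose reductase, differed by -1.12 ± 0.21 and ALDH3A2, which oxidises fatty aldehydes, by 0.85 ± 0.12. Of NRF2 partners and genes listed around the kinases JNK and ASK1, the response was lower for MAFK by -1.81 ± 0.18, for MAFF by -1.22 ± 0.16 and for JUN by -0.81 ± 0.10. Without untreated ATG7 KO replicate 1 all 13 kept their direction and passed, with values from -2.40 (ALOX5AP) and -2.26 (GSTO2) to 0.63 (ABCC4) and 0.86 (ALDH3A2). With each of the 12 libraries left out in turn, ABCC4 lost its call in 9 cases (adjusted p up to 0.025), GLRX in 8 (up to 0.018) and ALOX5AP in 2 (up to 0.011), and ABCC4 also lost it with upper quartile scaling, with at least 10 counts in every library and in limma on log2(FPKM + 0.1). The other 10 kept their calls in these fits.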

How the results depend on the processing

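The alternatives changed calls mainly in comparisons that use untreated ATG7 KO cells. The number of members higher in treated ATG7 KO than in treated WT cells was 1, and became 0 with at least 10 counts in every library (which drops MGST1) and 3 with the gene length correction. The number lower was 2, and became 1 when all 12 libraries shared a fit, which also left 1 higher and 1 lower member for the H2O2 response of WT cells in place of 2 and 2. Adding up the reads of GSTM1 to GSTM5 left 1 lower there, GSTK1, as the sum, which includes GSTM3, did not pass. Between untreated cells the number higher was 1, and 0 with at least 10 counts in every library. For the H2O2 response of ATG7 KO cells 1 was lower, against 2 in DESeq2, 3 without a filter on low counts and 3 in the fit of all 12 libraries. For the difference of the responses 0 were lower, against 1 in DESeq2 and 3 without the filter. Except for the dropped MGST1 and the summed reads, the cause of these changes was not tested. Over all genes, 1182 were called between untreated cells, against 2307 in DESeq2 and 1803 with the gene length correction.

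Leaving out 1 library at a time gave, for the untreated comparison, 0 to 4 higher and 0 to 1 lower members. It gave 0 to 2 higher and 0 to 3 lower for the H2O2 response of ATG7 KO cells, and 0 to 1 lower for the difference of the responses. The highest count came without untreated ATG7 KO replicate 1 in each case, and for the difference of the responses also without replicate 2. The lowest counts of the untreated comparison came without ATG7 KO replicate 3 or any WT replicate, and those of the ATG7 KO response without untreated replicate 3 or any treated replicate. The counts for WT cells and for treated cells did not move.

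Same-numbered replicates deviated together with correlations between -0.0429 and 0.0976, so they share only a number. With the replicate block 0 members were higher between untreated cells, as MGST1, whose call there carries no weight, was not called. In the H2O2 response of ATG7 KO cells 0 were lower (GSTK1, adjusted p = 0.011). The block changed no other call among the members.

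Reversals of sign concerned differences that were not called in the reported fit. Between treated cells GSTP1 was 0.013 without the filter, 0.16 with the length correction and -0.045 to 0.021 with 1 library left out, and GSTO1 was -0.036 with upper quartile scaling, -0.018 with at least 10 counts in every library and -0.055 to 0.055 with 1 library left out. The WT response of MGST3 was 0.0040 with RLE scaling, 0.022 with at least 10 counts in every library, 0.19 with the length correction and -0.063 to 0.053 with 1 library left out. With 1 library left out, untreated cells gave -0.12 to 0.13 for GSTM4, -0.26 to 0.010 for GSTK1 and -0.29 to 0.18 for MGST2. The response of ATG7 KO cells was 0.12 for GSTP1 with the length correction, -0.22 to 0.24 with 1 library left out, and -0.37 to 0.10 for MGST2. In the difference of the responses MGST1, at 1.01 in the reported fit, was -0.13 and -0.43 in limma on log2(FPKM + 1) and log2(FPKM + 0.1), and MGST2 was 0.11 with the length correction and -0.26 to 0.22 with 1 library left out. The other named genes reversed in 0 alternatives, and lost a call in 38 cases under the other settings and in 89 cases with 1 library left out. Depth limits GSTM1, GSTM2 and MGST1, which had at most 40 reads in a library.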
